A study of Mus musculus with 2 samples.

Results

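The 7 genes Rab27a, Mlph, Myo5a, Rab32, Rab38, Sytl2 and Mreg, which serve the transport of melanosomes and of their cargo, were followed by symbol through 4036 single B16 F10 cells, among 32285 genes in the count matrix. Of the 7 genes, 6 were among the 7849 genes with a mean over the 2 libraries of at least 10 CPM (UMIs per 1000000 UMIs), called measured genes here, and Rab32 lay under that limit. The line B16 F10 comes from a mouse melanoma and is pigmented, and the labels call its cells melanocytes. All cells were unmodified B16 F10 cells seeded at 100 cells per cm2 and grown for 7 days in high glucose DMEM with serum, and whether both groups came from 1 dish is not stated. A flow cytometer sorted them by side scatter into a low pigment group of 1900 cells and a high pigment group of 2136 cells. Each group is 1 single-cell library of 1 cell line, so no difference has a replicate check, no test was made and every interval covers counting error only.

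Pigment cells build melanin in melanosomes, which travel outward on microtubules and are then held in the actin-rich periphery. There the small GTPase Rab27a on the melanosome binds melanophilin (Mlph), and melanophilin binds the motor myosin Va (Myo5a). Mice that lack any of these proteins have diluted coats (ashen, leaden and dilute). Rab32 and Rab38 act earlier and direct melanin enzymes to the maturing melanosome, Sytl2 is a Rab27a effector that tethers melanosomes to the plasma membrane, and Mreg (melanoregulin) modifies melanosome distribution and was found as the suppressor of dilute.

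The low pigment library held 32437194 UMIs with a median of 16019.5 per cell, and the high pigment library 28848691 UMIs with a median of 12557 per cell. UMIs are unique molecular identifiers, each marking 1 captured RNA molecule. The 7 melanocytic markers Pmel, Mlana, Dct, Tyrp1, Tyr, Mitf and Sox10 had at least 3525 UMIs each in either library. Summed markers of fibroblasts and leukocytes reached at most 2.84 CPM and those of keratinocytes at most 0.185 CPM. Endothelial markers summed to 22.6 CPM in low and 2.98 CPM in high pigment cells, with Pecam1 at 726 and 81 UMIs and the other 4 at 3 UMIs or fewer. Schwann cell markers, which glial and melanocytic cells of the neural crest can share, summed to 239 and 171 CPM. By the authors' calls 39.4% of low pigment and 33.1% of high pigment cells were in G1, 37.1% and 22.4% in S, and 23.5% and 44.4% in G2M.

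RNA of the linker Mlph and of the GTPase gene Rab27a took a larger share of UMIs in the high pigment library, 1.75-fold and 1.43-fold. The other genes were within the size limit, with ratios of 1.21 for the motor gene Myo5a, 1.15 for Mreg, 0.838 for Rab38 and 0.810 for Sytl2, and Rab32 did not differ beyond counting error. A gene was called when it was at least 25% higher or at least 20% lower, the same fold in both directions and a limit of size alone. By it 2 of the 6 measured genes were higher (Rab27a and Mlph) and 0 were lower, beside 10.9% of all measured genes higher and 23.4% lower. At 1.5-fold 1 was higher (Mlph) and 0 lower, beside 3.25% and 8.08%. The median log2 ratio of the 6 genes was 0.23, and that of all measured genes was −0.08.

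Rab27a (chromosome 9, 73044854 to 73097629, plus strand, GRCm38) had 1146 UMIs or 35.3 CPM (95% interval 33.3–37.4) in the low pigment library. It had 1462 UMIs or 50.7 CPM (48.1–53.3) in the high pigment library, a ratio of 1.43 (1.33–1.55). The 2 intervals do not overlap, and 4.22% of measured genes had a larger ratio. Mlph (chromosome 1, 90915085 to 90951142, plus strand), the linker, had 3056 UMIs or 94.2 CPM (90.9–97.6) in the low pigment library and 4756 UMIs or 165 CPM (160–170) in the other. Its ratio was 1.75 (1.67–1.83), with 1.24% of measured genes above it. This was the largest ratio among the 7 genes, and for comparison Mitf, the melanocyte transcription factor, had a ratio of 2.29. Myo5a (chromosome 9, 75071015 to 75223688, plus strand) had 152 CPM (147–156) against 183 CPM (178–188), a ratio of 1.21 (1.159–1.253) whose interval reaches the size limit. Centred on the median gene its log2 ratio was 0.35, past the limit. The library kit reads the end of the RNA, so the melanocyte isoform of Myo5a that binds melanophilin could not be told from its other isoforms.

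**Figure D1:**
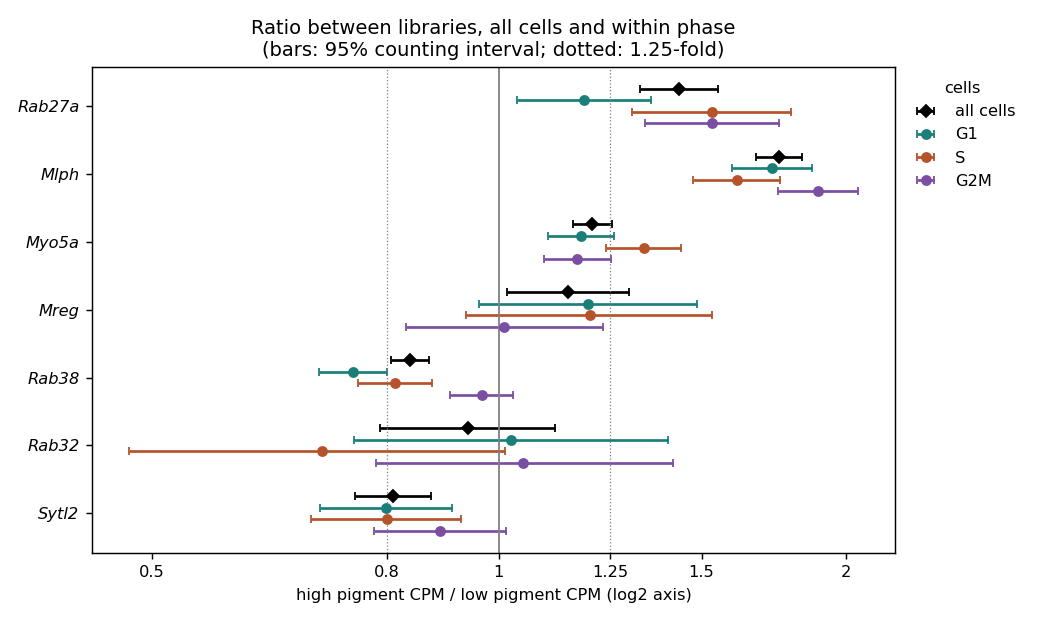
High over low pigment CPM on a log2 axis for each of the 7 genes, over all cells (black diamonds) and within the cells the authors called G1, S or G2M (coloured circles), with bars for the 95% counting interval and dotted lines at the size limit. Mlph lies right of both lines in all 4 sets of cells, Rab27a in all but G1, and Rab38 and Sytl2 lie left of 1.

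RefSeq has 7 promoter windows for 5 of the genes (Rab27a, Mlph, Myo5a, Rab32 and Mreg), with no entry used for Rab38 and Sytl2. The 2 windows of Mreg cover almost the same stretch. The E-box CACGTG, which reads the same on both strands, was in 2 of the 7 windows, that of Mlph and 1 of 2 of Rab27a, and in 7.15% of all 32851 windows of this length. No relation of these letters to the levels was tested. Windows run from 250 bases before to 50 bases after a transcript start (build GRCm38.p6). The related letters CATGTG, searched on both strands, are the core of the M-box of melanin enzyme genes. They were in 0 of the 5 genes' windows, beside 14.2% of all windows. All 3 of Tyr, Tyrp1 and Dct had them, which is no finding for a motif described from such genes. The windows of Mlph (chr1:90914850-90915149, plus strand) and of the second Rab27a start (chr9:73063898-73064197, plus strand) are shown with those of Tyrp1 (chr4:80833963-80834262, plus strand) and Tyr (chr7:87493463-87493762, minus strand), with the E-box or M-box core in capitals, so that the letters can be compared.
Mlph: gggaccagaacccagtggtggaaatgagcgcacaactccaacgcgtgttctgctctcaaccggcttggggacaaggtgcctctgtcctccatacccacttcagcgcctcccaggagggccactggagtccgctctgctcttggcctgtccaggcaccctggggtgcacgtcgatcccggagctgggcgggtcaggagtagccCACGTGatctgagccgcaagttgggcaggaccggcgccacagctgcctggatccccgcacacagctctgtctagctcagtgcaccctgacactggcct
Rab27a: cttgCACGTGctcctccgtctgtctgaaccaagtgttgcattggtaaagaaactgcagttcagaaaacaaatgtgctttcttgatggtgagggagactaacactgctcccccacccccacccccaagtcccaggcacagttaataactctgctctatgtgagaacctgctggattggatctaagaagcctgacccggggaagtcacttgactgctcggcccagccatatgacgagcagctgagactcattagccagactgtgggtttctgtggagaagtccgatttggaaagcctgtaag
Tyrp1: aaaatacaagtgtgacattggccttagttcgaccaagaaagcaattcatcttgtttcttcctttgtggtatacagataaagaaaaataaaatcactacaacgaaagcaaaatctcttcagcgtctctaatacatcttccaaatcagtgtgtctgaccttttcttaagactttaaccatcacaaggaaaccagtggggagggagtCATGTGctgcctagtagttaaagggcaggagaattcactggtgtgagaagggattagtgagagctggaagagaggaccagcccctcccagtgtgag
Tyr: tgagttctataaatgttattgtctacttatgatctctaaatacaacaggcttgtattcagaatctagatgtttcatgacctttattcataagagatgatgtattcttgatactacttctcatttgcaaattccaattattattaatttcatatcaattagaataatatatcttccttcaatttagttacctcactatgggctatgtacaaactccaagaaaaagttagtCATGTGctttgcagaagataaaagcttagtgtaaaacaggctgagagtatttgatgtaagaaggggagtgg
The E-box begins at position −48 from the start in Mlph and at −246 in Rab27a, and the other Rab27a window has neither motif. The M-box core begins at −46 in Tyrp1 and −21 in Tyr. A match of letters is a description of the window and not evidence of binding.

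Rab38 (chromosome 7, 88430273 to 88491572, plus strand), the GTPase mutated in the chocolate mouse, had 6417 UMIs or 198 CPM (193–203) in low pigment cells, against 4780 UMIs or 166 CPM (161–170). It was 1.19-fold lower in the high pigment library (1.15–1.24), and 70.3% of measured genes had a larger ratio. Its relative Rab32 (chromosome 10, 10545002 to 10558265, minus strand) had only 287 and 240 UMIs, or 8.85 and 8.32 CPM. The ratio of 0.94 had an interval of 0.789 to 1.12. Within counting error the counts thus allow anything from 1.27-fold lower to 1.12-fold higher. Sytl2 (chromosome 7, 90302252 to 90410719, plus strand) had 49.5 CPM (47.1–52.0) against 40.1 CPM (37.8–42.5), 1.24-fold lower (1.14–1.33), just short of the size limit. Among cells of at least 10000 UMIs its log2 ratio was −0.35, which passes it. Mreg (chromosome 1, 72159442 to 72212307, minus strand) had 528 and 539 UMIs, or 16.3 CPM (14.9–17.7) against 18.7 CPM (17.1–20.3). Its ratio of 1.15 had an interval of 1.02 to 1.30, which does not reach down to 1.

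High pigment cells had fewer UMIs, so a larger share is not always more UMIs in a cell. UMIs per cell also depend on the depth of each library, so they do not measure the RNA content of a cell. Mlph was higher in high pigment cells on both scales, with 1.61 UMIs per low pigment cell against 2.23. Rab27a had 0.603 against 0.684 UMIs per cell, and Myo5a 2.59 against 2.47, so the higher CPM of Myo5a went with no more UMIs per cell. Rab38 had 3.38 against 2.24 UMIs per cell and Sytl2 0.846 against 0.542. After each cell was thinned to 7500 UMIs, Mlph was seen in 46.4% of low pigment cells (44.1–48.6) against 67.7% (65.7–69.7) in the other library, and without thinning in 70.4% and 83.1%. Rab27a was seen in 23.8% (21.9–25.8) and 28.7% (26.8–30.7) of thinned cells, against 42.3% and 43.8% without thinning. No cell type that should lack these genes was among the cells, so the share that free RNA alone gives was not measured.

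Within each cell cycle phase the order of the libraries was kept for Mlph, Rab27a and Myo5a. Mlph had 169, 154 and 167 CPM in high pigment G1, S and G2M cells and 97.7, 95.4 and 88.5 CPM in low pigment G1, S and G2M cells. Within a library the intervals of neighbouring phases overlap, and the lowest high pigment group does not overlap the highest low pigment group. The Mlph ratio was 1.73 (1.59–1.87) in G1, 1.61 (1.48–1.76) in S and 1.89 (1.75–2.05) in G2M. Rab27a had 50.1, 45.4 and 53.3 CPM in high pigment G1, S and G2M cells and 42.2, 29.7 and 34.8 CPM in the same phases of low pigment cells. In order of level each of these groups overlaps the next, and the ratio was 1.19 (1.04–1.36) in G1 and 1.53 in both S (1.30–1.79) and G2M (1.34–1.75). Myo5a was highest in G1 in both libraries, with 200, 188 and 170 CPM in high pigment and 169, 141 and 145 CPM in low pigment G1, S and G2M cells. The Myo5a intervals of high pigment G1 and S cells overlapped, so there the order of these 2 phases is within counting error. Those of high pigment G2M and low pigment G1 cells overlapped too, as did those of low pigment G2M and S cells. The Myo5a ratio between libraries was 1.18 in G1, 1.34 in S and 1.17 in G2M.

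**Figure D2:**
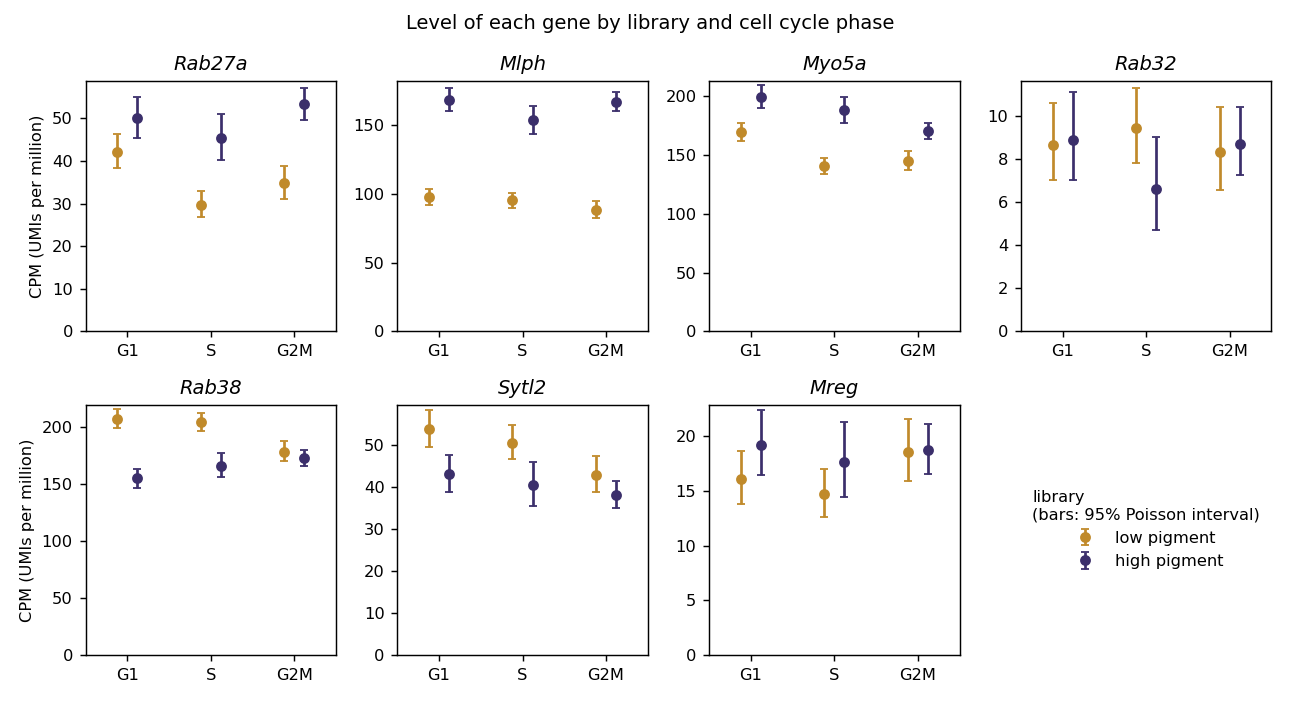
CPM of each of the 7 genes in cells the authors called G1, S or G2M, for the low pigment (ochre) and high pigment (violet) library, with 95% Poisson intervals of counting error and axes that start at 0. Mlph is higher in high pigment cells in every phase, and the 2 libraries come closest in G2M for Rab38, at 178 and 172 CPM.

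Rab38 showed the reverse order. Low pigment cells had 207 CPM in G1, 204 in S and 178 in G2M, and high pigment cells 155 in G1, 166 in S and 172 in G2M. All low pigment groups were above all high pigment groups, but low pigment G2M overlaps both high pigment G2M and high pigment S. The high over low pigment ratio of Rab38 was 0.748 (0.698–0.8002) in G1, 0.813 (0.755–0.875) in S and 0.966 (0.907–1.03) in G2M, where its log2 value turned to 0.04 when centred on the median gene. That of Sytl2 was 0.798 (0.699–0.911) in G1, 0.7996 (0.687–0.928) in S and 0.889 (0.779–1.01) in G2M. Both genes were thus nearest to equal in G2M. Mreg lay between 14.7 and 19.3 CPM in the 6 groups of library and phase, and each overlaps the next. Rab32 lay between 6.61 and 9.41 CPM, again with overlap throughout.

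Of the 6 measured genes, 1 was higher (Mlph) and 2 lower (Rab38 and Sytl2) in high pigment G1 cells, beside 12.4% and 25.8% of measured genes. In S cells 3 were higher (Rab27a, Mlph and Myo5a) and 1 lower (Sytl2), beside 13.6% and 22.3%. In G2M cells 2 were higher (Rab27a and Mlph) and 0 lower, beside 11.3% and 25.8%. The G1 call depends on the scale: centred on the median gene, 4 were higher and 1 lower.

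Between phases of the same library, Rab27a and Sytl2 were the measured genes that passed the limit, both in low pigment cells. In low pigment cells Sytl2 was 1.26-fold lower in G2M than in G1 (1.10–1.43) and the other 5 measured genes were within the limit, beside 15.7% of measured genes higher and 9.07% lower in G2M. In high pigment cells 0 of the 6 passed the limit in G2M against G1, beside 12.4% higher and 4.13% lower. In S against G1, Rab27a was the only measured gene past the limit in low pigment cells, with a ratio of 0.704 (0.612–0.809), beside 14.1% of measured genes higher and 11.4% lower. In high pigment cells 0 of the 6 passed it in S against G1, beside 16% higher and 7.4% lower, and Rab27a had a ratio of 0.907 (0.777–1.06). Rab32, which is not a measured gene, had 40 UMIs in S and 77 in G1 there, a ratio of 0.744 (0.494–1.10).

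The authors' clusters nearly coincide with the libraries. Cluster 0 (1556 cells, 97.7% high pigment) and cluster 2 (867 cells, 94.8% low pigment) hold mostly S and G2M cells. Cluster 3 (542 cells, 96.5% high pigment) and cluster 1 (1071 cells, 95.5% low pigment) hold 89.5% and 69.4% G1 cells. The clusters were made from the RNA of the same cells, so levels in them are a description. Mlph had 185 CPM (174–196) in cluster 3 and 161 CPM (155–166) in cluster 0, against 99.7 CPM (94.9–105) in cluster 1 and 88.9 CPM (84.4–93.5) in cluster 2, and no 2 of these intervals overlap. Rab27a had 55.8, 49.1, 40.7 and 30.8 CPM in clusters 3, 0, 1 and 2, with clusters 3 and 0 overlapping. Myo5a stood out in cluster 3 with 230 CPM (218–243), against 171 in cluster 0, 165 in cluster 1 and 139 in cluster 2, where clusters 0 and 1 overlap.

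For Sytl2 the mostly G1 clusters of both libraries were alike, at 53.5 CPM (50.02–57.2) in cluster 1 and 52.4 CPM (46.6–58.7) in cluster 3. This does not hold for the cells called G1, which had 53.9 CPM in the low and 43.0 CPM in the high pigment library. Clusters and phases group the cells differently. The cycling clusters 2 and 0 had 44.9 CPM (41.8–48.3) and 37.6 CPM (35.1–40.1), of which cluster 2 overlaps cluster 3. Mreg had its highest level in cluster 3, at 22.6 CPM (18.8–26.8), against 17.6 in cluster 0, 17.3 in cluster 1 and 15.5 in cluster 2, with an interval that overlaps those of clusters 0 and 1. Rab38 followed the libraries, with 209 and 188 CPM in clusters 1 and 2 and 175 and 162 CPM in clusters 3 and 0, where cluster 3 overlaps both cluster 2 and cluster 0. Among high pigment cells alone, cluster 0 was 1.44-fold lower than cluster 3 for Sytl2, 1.35-fold for Myo5a and 1.30-fold for Mreg. Tyr, the tyrosinase gene, was 1.45-fold lower. Mlph (1.18-fold), Rab27a (1.15-fold), Rab32 (1.15-fold) and Rab38 (1.09-fold) were also lower, Rab32 within counting error. The other 2 enzyme genes were near equal there, Tyrp1 1.04-fold lower and Dct 1.03-fold higher in cluster 0. Among low pigment cells alone, cluster 2 was 1.32-fold lower than cluster 1 for Rab27a, 1.18-fold for Sytl2, 1.17-fold for Myo5a and 1.24-fold for Tyr. Mlph, Rab38 and Mreg were 1.11-fold to 1.14-fold lower and Rab32 1.03-fold higher, Mreg and Rab32 within counting error. The share over all measured genes was not computed for these pairs. Cluster 3 cells also had the fewest UMIs, with a median of 9666.5 against 13878.5 in cluster 0, and the part of depth in these levels was not tested.

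**Figure D3:**
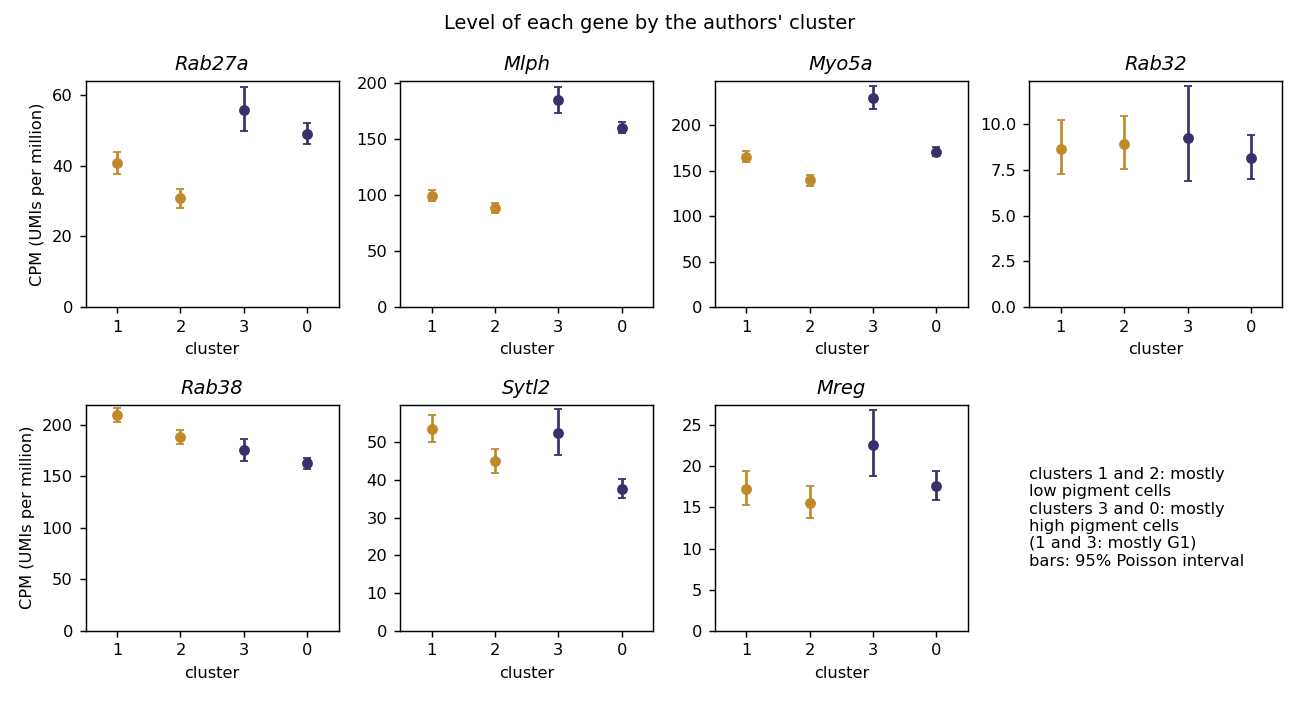
CPM of each of the 7 genes in the authors' clusters 1 and 2, which are mostly low pigment (ochre), and 3 and 0, which are mostly high pigment (violet), with 95% Poisson intervals of counting error and axes that start at 0. Myo5a has its highest level in cluster 3 at 230 CPM, and Mlph separates the 2 pairs of clusters.

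Across the cells of 1 library, the 7 genes had weak positive correlations with the summed melanin enzyme genes, but not with each enzyme. The enzyme measure was the summed UMIs of Tyr, Tyrp1 and Dct in cells thinned to 7500 UMIs, of which Dct gave 74.9% in low pigment and 76.9% in high pigment cells. Spearman's rho was above 0 for all 7 genes in both libraries. It ran from 0.037 (Mreg) to 0.18 (Myo5a) over 1900 low pigment cells and from 0.058 (Rab32) to 0.19 (Myo5a) over 2136 high pigment cells. The median rho of all measured genes was −0.0044 and −0.0083, and 95% of them lay below 0.062 and 0.054. In low pigment cells 5 of the 7 genes were above that bound and in high pigment cells all 7 were. These correlations are across cells that share a library, and sparse counts pull rho toward 0. With the mitochondrial percent of the cell, the 7 genes had a rho of −0.048 to 0.12 in low pigment and −0.0093 to 0.13 in high pigment cells, and its part in the relation was not tested. As a scale, Tyrp1 and Dct had a rho of 0.256 and 0.341 with each other in low and high pigment cells.

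Mlph had a lower rho with the enzyme sum than Rab27a and Sytl2, although it had more UMIs than either. It was 0.049 in low and 0.079 in high pigment cells for Mlph, 0.15 and 0.12 for Rab27a, 0.16 and 0.11 for Sytl2, and 0.14 and 0.091 for Rab38. The single enzymes also differed. With Tyr, rho was below 0 in low pigment cells for Mlph (−0.035), Mreg (−0.015) and Rab32 (−0.0085), and in high pigment cells for Rab32 (−0.013). In low pigment cells Mlph had a rho of 0.14 with Tyrp1 and 0.0080 with Dct, and Rab27a had −0.010 with Tyrp1 and 0.17 with Dct. In high pigment cells Rab27a had 0.13 with Tyrp1 and 0.096 with Dct, and Mlph 0.074 with each. Among the 21 pairs of the 7 genes, the median rho was 0.020 in low pigment and 0.056 in high pigment cells, and the largest was 0.14, between Myo5a and Sytl2 in high pigment cells. Rab27a and Mlph, whose proteins bind each other, had 0.00076 in low pigment and 0.078 in high pigment cells.

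**Figure D4:**
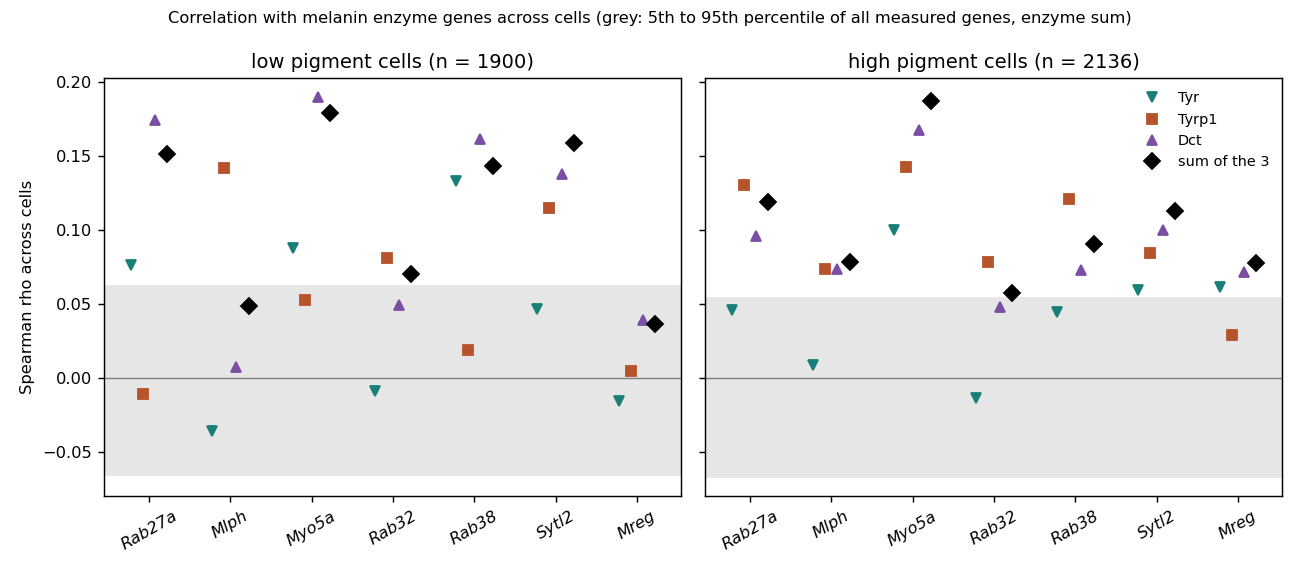
Spearman's rho across cells thinned to 7500 UMIs between each of the 7 genes and Tyr, Tyrp1, Dct or their sum, for 1900 low pigment and 2136 high pigment cells, with the range from the 5th to the 95th percentile of all measured genes for the sum in grey. The black diamonds lie above 0 for every gene, and Myo5a has the highest in both libraries.

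Ranked by enzyme UMIs, the cells of each library were cut into 3 equal groups, and the enzyme-rich group was set against the enzyme-poor group. Over 633 low pigment cells a group, with a median of 82 against 37 enzyme UMIs, Sytl2 had 325 against 153 UMIs (2.12-fold, 1.75–2.59) and Rab27a 240 against 117 (2.05-fold, 1.64–2.58). Rab32 was 1.86-fold (1.15–3.05), Myo5a 1.60-fold (1.43–1.78), Rab38 1.38-fold (1.26–1.52) and Mreg 1.30-fold (0.949–1.79) higher. Mlph was the lowest at 1.11 (0.973–1.27). Thus 6 of the 7 genes, and 5 of the 6 measured ones, were past the size limit in enzyme-rich low pigment cells, beside 7.87% of measured genes higher and 8.01% lower.

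Over 712 high pigment cells a group, with a median of 105 against 52 enzyme UMIs, Rab27a had 337 against 190 UMIs (1.77-fold, 1.48–2.13) and Myo5a 1242 against 802 (1.55-fold, 1.42–1.69). Rab32 and Sytl2 were 1.52-fold and Mreg 1.49-fold (1.13–1.98) higher in the enzyme-rich group, while Rab38 had a ratio of 1.23 and Mlph of 1.14. Here 5 of the 7 genes, and 4 of the 6 measured ones, passed the limit, beside 5.4% of measured genes higher and 10.5% lower. Enzyme-rich cells were in G1 in 42.8% against 35.7% of enzyme-poor cells in the low pigment library and in 35.1% against 32.3% in the high pigment library. Median UMIs per cell were 15107 against 16886 and 12572 against 12699. With the groups made within each phase the counts were again 6 and 5. In low pigment cells the order depends on the enzymes used. Ranked by Tyr and Tyrp1 alone 3 of 7 genes passed, with Mlph at 1.47 and Rab27a at 0.957. That ranking is mostly by Tyrp1, which gave 23.4% of low pigment enzyme UMIs against 1.61% for Tyr. Which enzyme makes the difference was not tested.

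Rab38 and Sytl2 had ratios between libraries under 1 (0.838 and 0.810), neither past the size limit, and ratios over 1 between enzyme-rich and enzyme-poor cells of either library, all past the limit but that of Rab38 in high pigment cells. Pmel, the melanosome fibril gene, had a ratio between libraries of 0.898, also within the limit. By phase its ratio was 0.775 in G1, past the limit, 1.01 in S and 0.969 in G2M. Pmel had 2.20-fold and 1.86-fold more UMIs in the enzyme-rich cells of the low and high pigment library. The enzyme genes themselves had ratios between libraries of 1.37 for Dct, past the limit, and 1.248 for Tyrp1 and 0.971 for Tyr, within it. Of the 7 genes, Mlph had the largest ratio between libraries and, with cells ranked by the summed enzymes, the smallest ratio within each. Ranked by Tyr and Tyrp1 alone, Mlph was not the smallest in low pigment cells. With the summed enzymes, Mitf lay near Mlph in high pigment cells, at 1.12, but at 1.39 in low pigment cells. The marker Sox10 had a ratio between libraries of 1.89. Its ratio between enzyme-rich and enzyme-poor cells was 1.05 in the low and 1.14 in the high pigment library. A large ratio between libraries with a small one within each was thus not particular to Mlph.

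**Figure D5:**
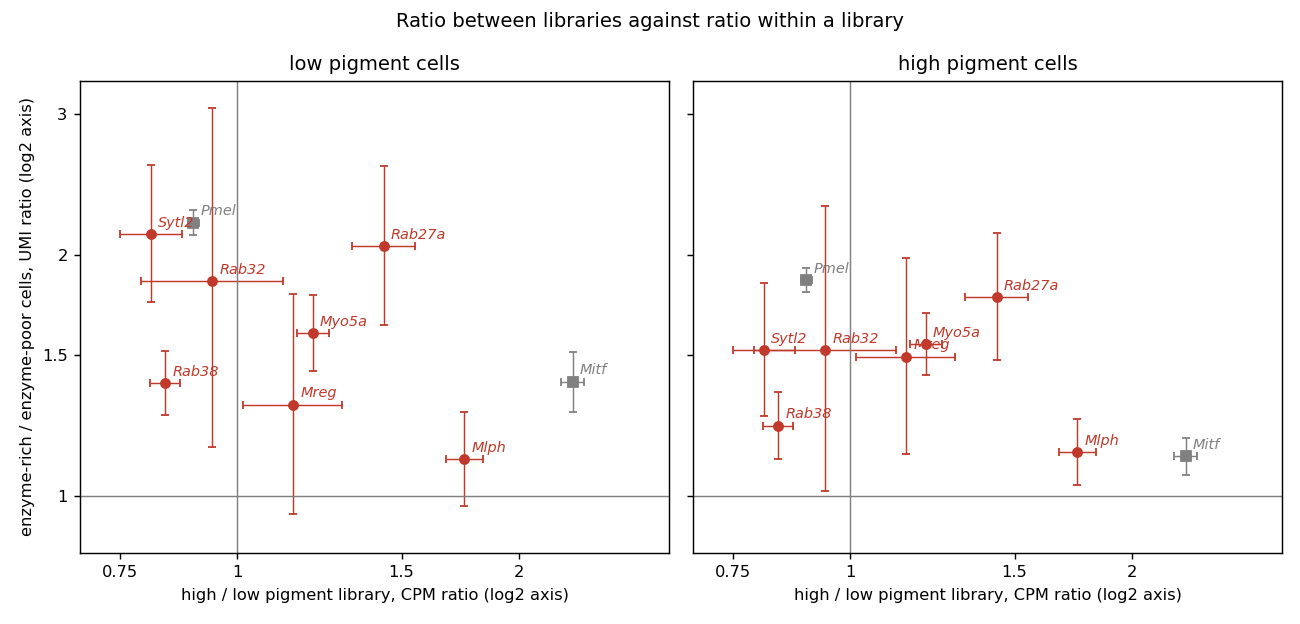
High over low pigment CPM (horizontal, log2 axis) against the ratio of UMIs in enzyme-rich to enzyme-poor cells of 1 library (vertical, log2 axis). The 7 genes are in red and Pmel and Mitf in grey, with 95% counting intervals. Cells were ranked by the summed UMIs of Tyr, Tyrp1 and Dct, and the order of the genes in low pigment cells depends on that choice. Rab38, Sytl2 and Pmel lie left of 1 and above 1, and of the 7 red points Mlph lies farthest right and lowest in both panels, with Mitf just under it in the high pigment panel (1.12 against 1.14).

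For each of the 6 measured genes the 3 genes with the most similar counts across cells were found. Likeness was the mean of the within-library rho over both libraries, among 3046 or 3047 genes with a mean of at least 50 CPM. Pmel came first for Myo5a (0.21), Rab38 (0.17) and Sytl2 (0.14), and second for Rab27a (0.13) after Dct (0.14). Trpm1, an ion channel gene of melanocytes, was among the first 3 for Rab27a, Myo5a, Rab38 and Sytl2. For Mlph the first 3 were Mitf (0.13), Gpnmb (0.12) and Eps8 (0.12), so Mlph shared Eps8 with Sytl2 (0.13) but neither Pmel, Dct nor Trpm1 with the others. For Rab38 the remaining place was held by Apoe (0.1237), close to Trpm1 (0.1244), and gaps of this size do not fix an order. Sparse counts pull rho toward 0, and the part of abundance in these ranks was not tested. The first 3 for Mreg, Fam174b, Ppargc1a and Trak2, had values of 0.059 to 0.075, which in such sparse counts is no finding.

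Around the 7 genes stand other effectors, regulators and motors, 87 genes in 6 lists, of which 60 were measured, 4 higher (6.67%) and 12 lower (20.0%) in high pigment cells. Their median log2 ratio was −0.10, and centred on the median gene 8 were higher and 6 lower. Of 12 Rab27 effectors and relatives, Mlph and Sytl2 alone were measured. Rab27b, the close relative of Rab27a, had 1 UMI in each library, and Myrip, which links Rab27a to myosin in retinal pigment cells, had 11 UMIs in low pigment and 1 in high pigment cells. Of 7 measured regulators of Rab27 exchange, hydrolysis and prenylation, 0 were higher and 2 lower. Rabggtb, the catalytic chain of the enzyme that attaches lipid to Rab proteins, had 58.5 against 37.5 CPM (1.56-fold lower, 1.45–1.69), and Tbc1d10b was 1.26-fold lower. Of 6 measured partners of Rab32 and Rab38, 0 were higher and 1 was lower, Hps1 (1.31-fold, 1.13–1.51), which with Hps4 forms their exchange factor.

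Of 15 measured genes of actin-based transport, 2 were higher and 1 was lower. Spire1, an actin nucleator that works with myosin Va, had 45.3 against 59.0 CPM (1.30-fold, 1.21–1.40). Rab11b, a GTPase of recycling vesicles, was 1.27-fold higher. Of 19 measured genes of microtubule-based transport, 1 was higher, Rab1a (1.30-fold, 1.245–1.36), a GTPase of the early secretory pathway, and 2 were lower, the kinesin gene Kif1b (1.26-fold) and the dynactin gene Dctn2 (1.30-fold). Of 13 measured genes of release and membrane fusion, 1 was higher and 6 lower. The syntaxin gene Stx3 had 9.87 against 19.1 CPM (1.94-fold, 1.69–2.23). The 3 lowest were the vesicle GTPase gene Rab3a (1.85-fold lower, 1.59–2.16), the exocyst gene Exoc7 (1.41-fold) and the syntaxin gene Stx4a (1.36-fold). The share of lower genes in this last list, 46.2% of 13 genes, stands beside 23.4% of all measured genes, and the other lists had 28.6% or less. That share depends on the limit and the scale. At 1.5-fold Rab3a alone of this list was lower. Centred on the median gene, the lower genes of all lists together fell from 12 to 6.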

How the data were processed

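The authors deposited 1 matrix of UMI counts per gene and barcode, made with Cell Ranger 6.1.2 per the file headers and holding both libraries, and the submitters' processing notes name build mm10. The sources used here do not say whether depth was equalised or how multi-gene reads were treated. The authors' deposited cell table gives counts of UMIs and genes per cell, the percent of mitochondrial UMIs, the sort, a phase and a cluster number for 4036 of 5818 barcodes. Every barcode of 7500 or more UMIs and less than 10% mitochondrial UMIs was in it, and no other (0 exceptions). The libraries share 2 barcode sequences, 0 of them in the table.

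Counts were summed over cells and scaled to CPM by the summed UMIs of the group. CPM has an exact Poisson, a ratio an exact conditional binomial and a share of cells an exact Clopper-Pearson 95% interval, all for counting error only. A floor of 3 counts is 0.0925 CPM for low and 0.104 CPM for high pigment cells. Measured genes have a mean of at least 10 CPM, and a call means at least 25% higher or 20% lower, by size alone. Cells were thinned without replacement to 7500 UMIs for shares and correlations, and no cell was shallower. Scripts used Python 3.11.15, numpy 2.4.6, scipy 1.17.1 and scanpy 1.11.5, and were tested on simulated data. Scrublet in scanpy marked 13 (0.684%) of the low and 16 (0.749%) of the high pigment cells, all kept.

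The 7 genes and the lists were chosen with earlier results of these data known. All 7 genes are named, and from each list the called genes with at most the 3 largest and 3 smallest ratios, and for each measured gene the 3 most alike. From the lists, 1 called gene is not reported here. Rab9a was matched through its RefSeq symbol. The split of cells by enzyme UMIs and its alternatives were added after the data were seen. Positions of genes come from GENCODE M21 (GRCm38), promoter windows from RefSeq. Alternatives tried were scaling to the median gene, the mean over cells of CPM, equal phase weights, other cell filters, other limits and other correlations.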

Additional observations from a re-analysis of the deposited data

Results flagged for a closer look

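Rab38 moved in opposite directions from G1 to G2M in the 2 libraries. The ratio of G2M to G1 CPM was 0.861 (0.807–0.918) in low pigment cells and 1.11 (1.04–1.19) in high pigment cells, both within the size limit, and the difference was not tested, with 1 library a group.

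The 7 genes were also seen in barcodes outside the authors' table, above the limit of 3 counts. They summed to 465 CPM over 1086 low pigment barcodes and to 711 CPM over 696 high pigment barcodes, with 554 and 631 CPM inside the table. Over non-mitochondrial UMIs alone, the values per 1000000 were 597 outside and 587 inside for low pigment, and 774 outside and 664 inside for high pigment barcodes, so the low pigment value was then no lower outside the table. Median depth outside the table was 1049 and 2924.5 UMIs.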

How the results depend on the processing

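Of 42 log2 ratios of the 7 genes between libraries recomputed under 6 settings, 38 stayed within their counting interval, 4 moved beyond it and 0 reversed. Mlph ranged from 0.79 to 0.89, Rab27a from 0.48 to 0.60, Myo5a from 0.21 to 0.35, Rab38 from −0.27 to −0.18 and Sytl2 from −0.35 to −0.22. Called at 1.5-fold, 1 measured gene was higher. Among cells of at least 10000 UMIs, 1 was lower. Centred on the median gene, the lists had 8 genes higher and 6 lower, and called at 1.5-fold 1 higher and 3 lower. Within G1, 4 of the measured genes were higher and 1 lower centred on the median gene, 2 higher and 1 lower by the mean over cells, and 0 lower at 1.5-fold. Within S, 0 were lower centred on the median gene and 0 at 1.5-fold. For low pigment G2M against G1, 0 were lower at 1.5-fold. The correlation with the enzyme sum was above 0 for all 7 genes in both libraries under the 5 alternatives run, with 60 of 70 values near the main one and 10 moved. In low pigment cells Rab27a ranged from 0.00079 to 0.21, Rab38 from 0.038 to 0.23 and Myo5a from 0.065 to 0.26, lowest with Tyr and Tyrp1 alone and highest without thinning. Ranked by these 2 enzymes, 3 of 7 genes passed in enzyme-rich low pigment cells, and Rab27a (0.957) and Mreg (0.926) reversed. Apart from settings that use other genes or limits by construction, the cause was not tested. No paired analysis was possible because each group has 1 library. Rab32, with under 300 UMIs in a library, is limited by depth.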
